A study of Rattus norvegicus with 9 samples.

Results

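The miR-183, miR-96 and miR-182 cluster was followed through 9 small RNA libraries of rat cornea, with 3 libraries each for normal cornea, isografts and allografts. Its members were taken as the rows of the deposited table whose names equal rno-miR-183-5p, rno-miR-96-5p and rno-miR-182, and all 3 were found among the 765 mature miRNAs listed. All samples were labelled as Wistar rats at 6 weeks after birth, the allografts included. By the usual meaning of these words, donor and recipient match genetically in an isograft and differ in an allograft; the labels give no donor strain, no time since surgery and no clinical state of the graft. Each library is named after its group and the number its title carries, 12, 34 or 56, whose meaning is not stated. Whether a library holds 1 cornea or several pooled ones is not stated either. The labels do not tie the libraries to separate animals. The p-values below therefore describe the spread among these libraries, and that spread may be technical. Those from limma use a spread pooled over all 3 groups and drawn towards that of other miRNAs, not that of the compared groups alone.

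The 3 miRNAs are processed from 1 primary transcript and are best known from sensory cells, where photoreceptors, cochlear hair cells and olfactory neurons make them at high levels. Changes in the seed of miR-96 cause progressive hearing loss, and loss of the cluster impairs retinal and inner ear function. In the cornea the cluster is made by the epithelium, by the sensory nerve fibres that end in it and by resident myeloid cells. Lymphocytes can make it too: miR-182 is induced by interleukin-2 in activated helper T cells, where it acts on the transcription factor Foxo1. A bulk cornea sums all these sources, so fewer cells of a type and less RNA per cell cannot be told apart.

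The mature sequences are shown because the members differ in how much of their seed they share, which sets which targets they can have in common. They are given 5′ to 3′ from RefSeq (build GRCr8), with the seed, bases 2 to 8, in capitals.
miR-183-5p: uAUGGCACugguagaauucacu
miR-96-5p: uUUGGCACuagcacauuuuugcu
miR-182: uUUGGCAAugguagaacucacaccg
miR-96-5p and miR-182 have the same bases 2 to 7 and part at the last base of the seed, so 6 of 7 seed bases are identical. miR-183-5p also shares 6 of 7 seed bases with miR-96-5p, but 5 of 7 with miR-182. Outside the seed the likeness is the other way round: after base 8, miR-183-5p and miR-182 are identical at 12 of 14 positions, against 6 of 14 for miR-183-5p and miR-96-5p and 5 of 15 for miR-96-5p and miR-182. The longest stretch common to miR-183-5p and miR-182 is UGGUAGAA, which starts at base 9 of both. Each of the 3 seeds belongs to 1 of the 694 mature sequences in the RefSeq table. In the RefSeq gene table of GRCr8 the genes Mir182, Mir96 and Mir183 follow each other on chromosome 4, all on the minus strand, between the protein-coding genes Nrf1 and Ube2h. Mir3553, listed beside Mir183, gave a miRNA that was at 0 reads in every library; a floor of 3 reads corresponds to 0.247 to 0.273 RPM, depending on the library.

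RPM is the number of reads of a miRNA per 1000000 reads of the library. The denominators, recovered from the step size of the values, were 12153889 reads in isograft 12 and between 11001459 and 11013517 in all other libraries. The members had between 439 and 29647 reads in a library. The listed miRNAs took between 26.4% (allograft 34) and 65.6% (normal 34) of all reads of a library, and the rest are not described in the sources used here. Among the isografts they took 36.8% in isograft 12, against 54.5% and 48.8% in isografts 34 and 56. Isograft 12 and allograft 34 stood apart in earlier results of these data, and values without them are given where a result rests on them. In the libraries labelled normal cornea, miR-184, the leading miRNA of corneal epithelium, was the most abundant miRNA at 288696 RPM ± 65850 (SD, n = 3).

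miR-182 was the most abundant member in every library, miR-183-5p the second and miR-96-5p the third. In normal corneas the levels were 2478 RPM ± 273 for miR-182, 713 ± 92.3 for miR-183-5p and 158 ± 14.9 for miR-96-5p (SD, n = 3 each), so neighbours in this order were far apart compared with their spread. miR-182 ranked 24 or 25 among all listed miRNAs of a normal library, miR-183-5p ranked 47 to 49 and miR-96-5p 83 to 86. The mature miRNAs are 25, 22 and 23 bases long and a read covers the molecule, so no correction for length was made. This order is one of reads, and how evenly the library preparation captured different miRNAs was not tested. The opposite arms were nearly absent. miR-183-3p had between 2 and 18 reads in a library, 0.182 to 1.64 RPM, and miR-96-3p had 1 read in normal 56, 1 in allograft 56 and 0 in the other 7 libraries.

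**Figure D1:**
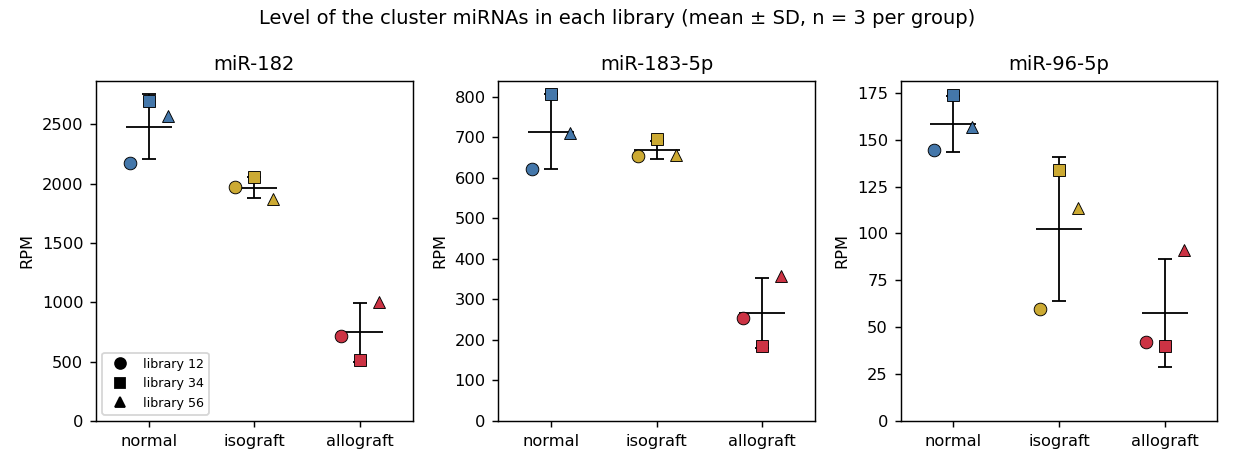
RPM of miR-182, miR-183-5p and miR-96-5p in each library, with 1 point per library, the shape giving the number in its title, and a black bar for the group mean with its SD (n = 3). For miR-182 and miR-183-5p all 3 allografts lie below every isograft and normal cornea; for miR-96-5p isograft 12, at 59.6 RPM, lies among the allografts.

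All 3 members fell in allografts compared with normal corneas. miR-182, the largest of them, had 2171, 2693 and 2570 RPM in normal corneas 12, 34 and 56. Isografts 12, 34 and 56 had 1972, 2056 and 1872 RPM, and allografts 12, 34 and 56 had 716, 514 and 1005 RPM. The highest allograft was thus well below the lowest isograft, and the isografts lay just below the normal corneas without overlap. miR-183-5p was at 622, 807 and 709 RPM in normal corneas, with 653, 694 and 656 RPM in isografts but 254, 185 and 358 RPM in allografts. Its isografts lay inside the range of the normal corneas, while its allografts were all lower. miR-96-5p was at 144, 174 and 157 RPM in normal corneas, with 59.6, 134 and 114 RPM in isografts and with 42.1, 39.9 and 91.0 RPM in allografts. Its isografts were all below the normal corneas and overlapped with the allografts, since isograft 12 was lower than allograft 56. The lowest value of all, in allograft 34, rested on 439 reads (95% exact binomial interval 36.2 to 43.8 RPM). Such an interval holds counting error alone, because the reads carry no molecular identifiers and need not be independent molecules.

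In allografts against normal corneas miR-182 fell by 1.78 on the log2(RPM + 1) scale (SE 0.34, adjusted p = 8.2e-05), a ratio of group means of 0.301. miR-96-5p fell by 1.54 (SE 0.41, adjusted p = 0.0025), a ratio of 0.364, and miR-183-5p fell by 1.46 (SE 0.35, adjusted p = 0.0011), a ratio of 0.373 (limma, Benjamini-Hochberg adjustment over the 281 miRNAs tested, n = 3 per group). All 3 members were lower past the threshold of 0.05, in a comparison where 24.2% of the miRNAs tested were called lower and 47.3% were called in either direction. All 3 also had no overlap between allografts and normal corneas, as did 30.2% of the miRNAs tested in the same direction. All miRNAs tested had a median log2 fold change of -0.14. Among the 281, counted from the largest fall, miR-182 ranked 15, miR-96-5p 27 and miR-183-5p 33. Without isograft 12 and allograft 34 the differences were -1.54, -1.34 and -1.23 (adjusted p = 8.1e-07, 0.00013 and 0.00015). These libraries were picked because they stood apart in these data, so leaving them out narrows the spread (SE 0.29 for miR-182). The smaller p-values are therefore no added support.

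These sizes depend on what the reads are scaled to. Scaled to the sum of the listed miRNAs, which gives the share of miRNA reads in place of the share of all reads, the differences were -1.06 for miR-182, -0.83 for miR-96-5p and -0.75 for miR-183-5p, all past the threshold (limma, adjusted p = 0.00018, 0.0076 and 0.0015). That scaling moved the median of all miRNAs tested to 0.54, so that relative to the median the members were at -1.60, -1.38 and -1.29. In RPM they were at -1.64, -1.41 and -1.33 relative to it. With miR-184 taken out of the denominator the differences were larger, at -2.21 for miR-182, -1.98 for miR-96-5p and -1.90 for miR-183-5p. Median-of-ratios scaling gave -1.66, -1.43 and -1.34 in the same order. Of the listed miRNA reads, miR-182 took 0.433% ± 0.0289 in normal corneas and 0.432% ± 0.0896 in isografts, but 0.207% ± 0.0116 in allografts (SD, n = 3 each).

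Isografts against normal corneas gave no call for the cluster. The log2 differences were -0.33 for miR-182 (SE 0.34, 95% interval -1.02 to 0.36, adjusted p = 0.62), -0.09 for miR-183-5p (SE 0.35, -0.80 to 0.63, adjusted p = 0.90) and -0.70 for miR-96-5p (SE 0.41, -1.53 to 0.13, adjusted p = 0.27), by limma with Benjamini-Hochberg adjustment. In this comparison 0 of 3 members passed; 0 were also below an unadjusted p of 0.05, and of the miRNAs tested 4.63% were called lower and 21.4% in either direction. miR-182 and miR-96-5p were lower without overlap, as were 11.0% of the miRNAs tested. The intervals still allow a fall of 2-fold for miR-182 and more for miR-96-5p. For miR-96-5p the call differed with the tool and the scaling: it was lower by 0.81 with median-of-ratios scaling (limma, adjusted p = 0.0024), by 0.80 with edgeR and by 0.79 with DESeq2 on the recovered reads (adjusted p = 0.0041 and 0.00014). For miR-182 and miR-183-5p neither count tool made a call. The sign for miR-183-5p is not settled, since its difference was 0.22 when scaled to the sum of the listed miRNAs. Without isograft 12 the difference of miR-96-5p was -0.35 (adjusted p = 0.54), while those of miR-182 and miR-183-5p stayed at -0.33 and -0.07.

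Between allografts and isografts, miR-182 fell by 1.45 (SE 0.34, adjusted p = 0.0017) and miR-183-5p fell by 1.38 (SE 0.35, adjusted p = 0.0036), with no overlap between the groups, which held for 22.4% of the miRNAs tested in this direction. miR-96-5p had a difference of -0.84 (SE 0.41, 95% interval -1.68 to -0.01 before adjustment, adjusted p = 0.11) and its groups overlapped. Of the miRNAs tested, 21.0% were called lower in this comparison and 34.5% in either direction, 97 miRNAs, with a median over all miRNAs of -0.29 (log2). That background moved with single libraries: 147 were called without isograft 12 and 52 without allograft 34. The call of miR-96-5p moved with them, at -1.19 without isograft 12 (adjusted p = 0.0036), -1.22 without allograft 56 (adjusted p = 0.017) and -0.98 without isograft 12 and allograft 34 together (adjusted p = 0.017). Median-of-ratios scaling, edgeR and DESeq2 also called it, at -0.62, -0.61 and -0.63 (adjusted p = 0.0082, 0.012 and 0.0026). This comparison and that with normal corneas share the allograft libraries, and so are not independent of each other.

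**Figure D2:**
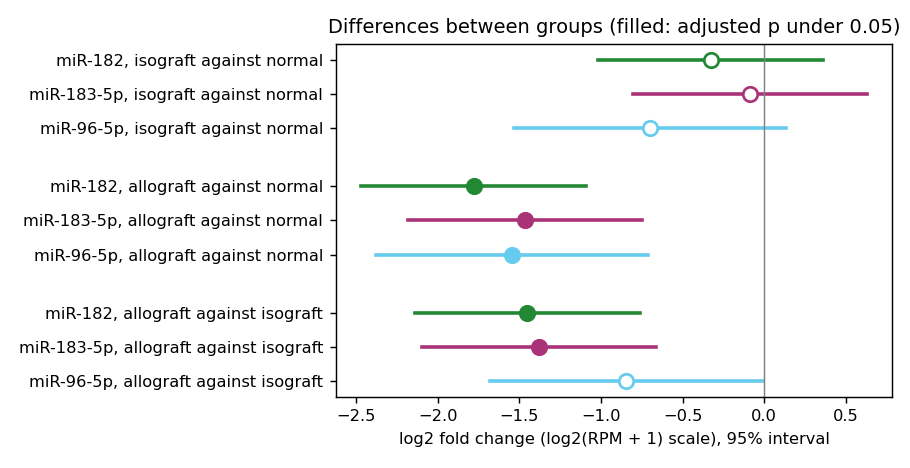
Log2 fold changes of the 3 members in the 3 comparisons, on the log2(RPM + 1) scale, with 95% intervals that are not adjusted for the number of miRNAs. Filled points passed an adjusted p of 0.05: all 3 members in allografts against normal corneas, miR-182 and miR-183-5p in allografts against isografts, and none in isografts against normal corneas.

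The 3 groups were also compared at once by exact permutation of the libraries (two-sided, 1680 arrangements, not adjusted), which gave p = 0.00357 for miR-182, the smallest that 3 groups of 3 can give, p = 0.0214 for miR-183-5p and p = 0.0393 for miR-96-5p. For miR-96-5p that p did not hold when a single library was left out in 7 of 9 cases, with p from 0.0571 to 0.0893 without normal 12, 34 or 56, isograft 34 or 56, or allograft 12 or 34. Leaving out isograft 12 or allograft 56 kept it under 0.05.

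The make-up of the cluster was then compared within libraries, where the scaling cancels. The share of miR-182 in the cluster's summed RPM was 74.0% ± 0.748 in normal corneas, 71.9% ± 1.40 among the isografts and 69.8% ± 0.842 among the allografts. The share of miR-183-5p was 21.3% ± 0.661, 24.4% ± 0.392 and 24.9% ± 0.256, and that of miR-96-5p was 4.74% ± 0.174, 3.72% ± 1.31 and 5.27% ± 1.06 (SD, n = 3 each). The sum of the 3 members itself was 3349 RPM ± 376 in normal corneas. It was 2737 RPM ± 129 in isografts and 1068 ± 360 in allografts.

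The ratio of miR-183-5p to miR-182 was very even within groups and differed between them. Taken as RPM + 1 of miR-183-5p over RPM + 1 of miR-182, it was 0.287, 0.300 and 0.276 in normal corneas. The isografts had 0.332, 0.338 and 0.351, and the allografts 0.356, 0.361 and 0.357. No group overlapped with another, with normal corneas lowest and allografts highest. On the log2 scale the ratio was higher by 0.24 in isografts and by 0.32 in allografts than in normal corneas, and the difference between allografts and isografts was 0.07 (two-sided exact permutation over all groups, p = 0.00357, adjusted p = 0.0107 over 3 ratios). That test takes all 3 groups at once and does not test the step from isografts to allografts on its own. The difference between allografts and normal corneas lay between 0.29 and 0.35 with any 1 library left out, and the adjusted p between 0.0107 and 0.0214. So miR-182 and miR-183-5p moved by unequal amounts, although the steps are small beside the fall of the cluster. How reads that could match several miRNAs were assigned is not given in the sources used here.

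miR-96-5p was less tied to the other members. Its ratio to miR-182, formed in the same way as that of miR-183-5p to miR-182, was 0.0669, 0.0650 and 0.0614 in normal corneas. The isografts had 0.0307, 0.0657 and 0.0612, and the allografts 0.0600, 0.0794 and 0.0915. Isograft 12 stood alone, far below all other libraries. The 3-group test gave no call for this ratio (exact permutation test, p = 0.225, adjusted p = 0.225) or for that of miR-96-5p to miR-183-5p (p = 0.10, adjusted p = 0.150). Without isograft 12 the same test gave an adjusted p of 0.393 for each of these ratios.

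**Figure D3:**
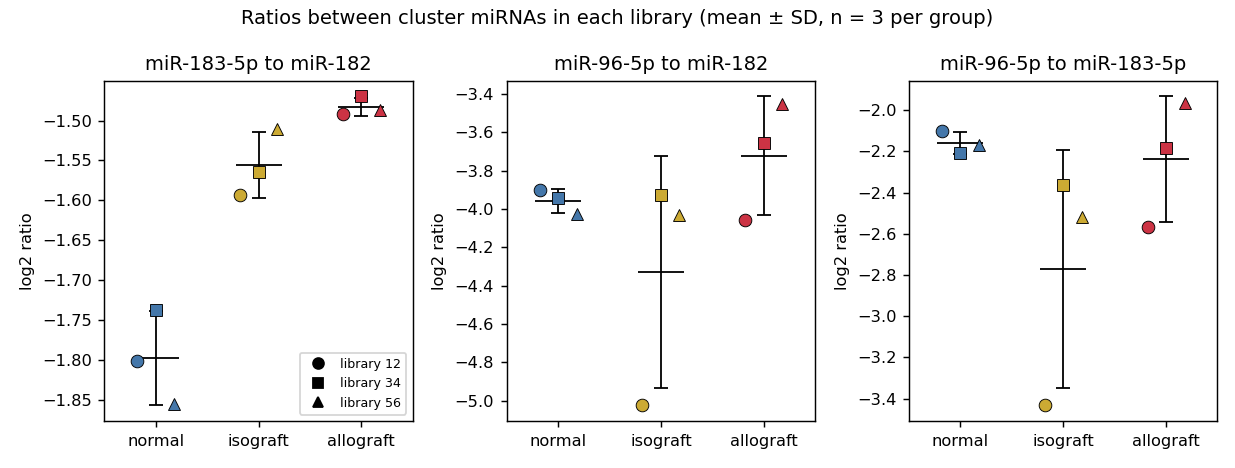
Log2 ratios of RPM + 1 between the cluster's members in each library, with 1 point per library and the group mean with its SD (n = 3). The ratio of miR-183-5p to miR-182 steps up from normal corneas to isografts to allografts without overlap, over a range of less than 0.4. The gap between isografts and allografts is narrow. Isograft 12 lies lowest in both ratios that involve miR-96-5p.

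The cluster was set beside 10 miRNAs of corneal and squamous epithelium, a list with miR-184, the keratinocyte miRNAs miR-205, miR-203a-3p, miR-203b-3p and miR-31a-5p, and 5 members of the miR-200 family, which maintain the epithelial state. In allografts against normal corneas 8 of these 10 were called lower and 0 higher, where 24.2% of all miRNAs tested were called lower. The median log2 fold change was -1.86, against -1.54 for the cluster and -0.14 for all miRNAs tested. In isografts against normal corneas 4 of the 10 were called lower, where 4.63% of all miRNAs tested were. The list ran from -1.25 to 0.84 with a median of -0.80, against -0.33 for the cluster. In allografts against isografts 3 of 10 were called lower, near the 21.0% of all miRNAs tested. All 10 had log2 fold changes below 0, from -1.79 to -0.29, with a median of -0.91, against -1.38 for the cluster. The list summed to 272035 to 421732 RPM in normal corneas, 159484 to 194933 RPM among the isografts and 37457 to 91472 RPM among the allografts.

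Relative to the mean log2 level of that list in the same library, no member differed between groups past the threshold. The mean position of miR-96-5p was -3.68 ± 0.10 in normal corneas, -3.69 ± 0.09 among the isografts and -3.50 ± 0.12 among the allografts (SD on the log2 scale, n = 3 each; exact 3-group permutation test, p = 0.164, adjusted p = 0.246). miR-182 stood at 0.27 ± 0.10, 0.64 ± 0.58 and 0.22 ± 0.30 (p = 0.504, adjusted p = 0.504). miR-183-5p stood at -1.52 ± 0.05, -0.91 ± 0.54 and -1.26 ± 0.30 (p = 0.157, adjusted p = 0.246). The wide spread of the isografts came from isograft 12, where miR-182 stood at 1.31 and miR-183-5p at -0.29, against 0.35 and 0.28, and -1.22 and -1.23, in isografts 34 and 56. A p that misses the threshold does not show that the cluster and the list move alike.

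**Figure D4:**
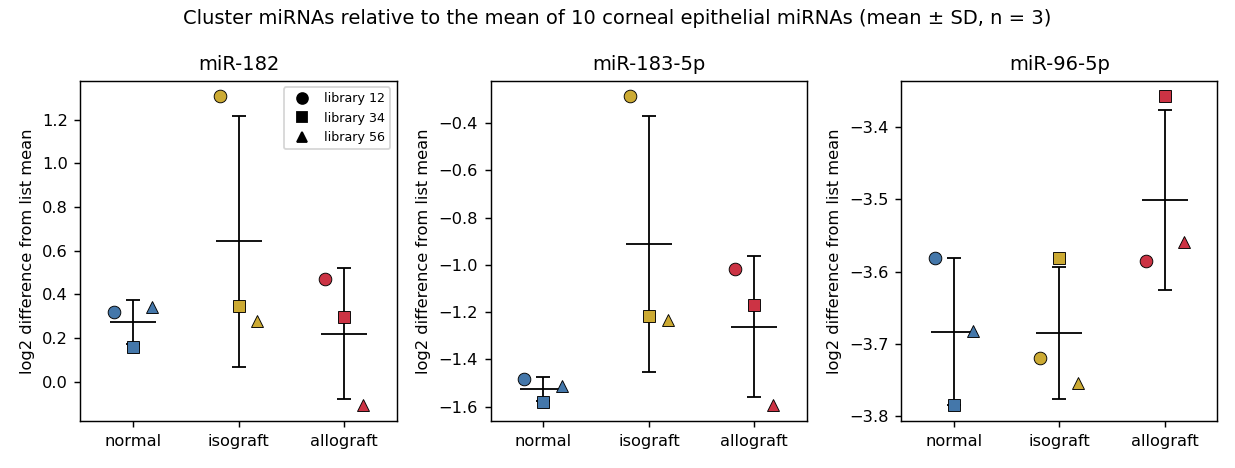
Position of each member relative to the mean log2(RPM + 1) of the 10 epithelial miRNAs in the same library, with 1 point per library and the group mean with its SD (n = 3). miR-96-5p stays between -3.79 and -3.36 in all 9 libraries, while miR-182 and miR-183-5p are far above the other libraries in isograft 12.

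Single miRNAs of the list show how isograft 12 differs. miR-205, which marks stratified epithelium, was at 5763 RPM in isograft 12 against 14532 and 13178 in isografts 34 and 56, and at 11162 in allograft 56 against 4034 and 3832 in allografts 12 and 34. miR-96-5p was likewise low in isograft 12 and high in allograft 56 compared with the other libraries of their groups. Its reads per 1000 reads of miR-205 numbered 6.26 to 7.09 in normal corneas, 8.62 to 10.3 among the isografts and 8.15 to 10.4 among the allografts, so every graft was above every normal cornea. For miR-182 the same number was 103 to 110 in normal corneas, but 342 in isograft 12 against 141 and 142 in isografts 34 and 56. Set against miR-184, on the other hand, miR-182 was even among the isografts, at 14.6, 14.3 and 14.2 reads per 1000 reads of miR-184, above the 7.93 to 10.1 of normal corneas and below the 15.8 to 20.8 of allografts. These pairs were chosen after their values were seen and carry no test.

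**Figure D5:**
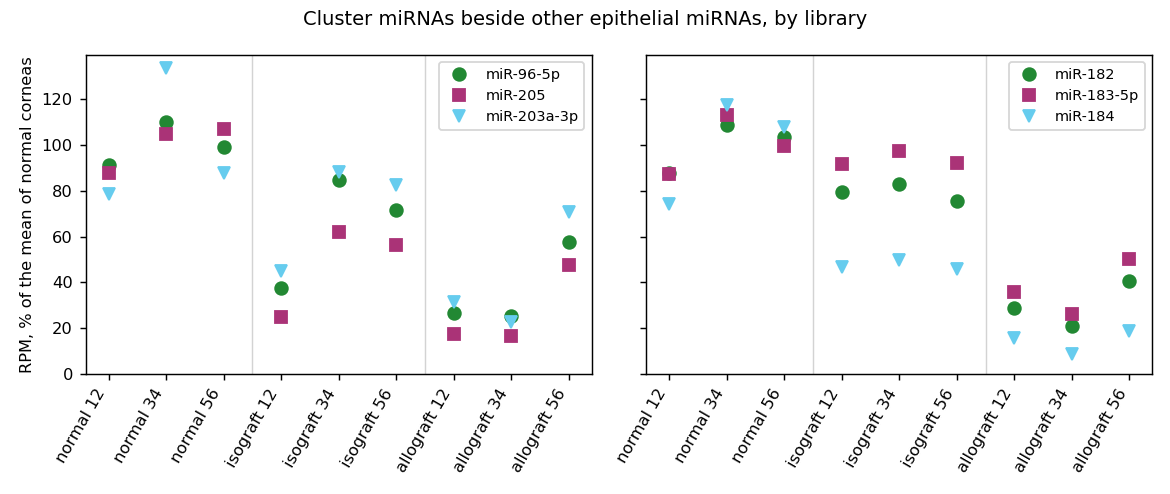
RPM in each library as a percentage of the mean of the normal corneas, with miR-96-5p beside miR-205 and miR-203a-3p on the left and miR-182 and miR-183-5p beside miR-184 on the right. On the left all 3 miRNAs are low in isograft 12 and higher in allograft 56 than in the other allografts; on the right isograft 12 is level with isografts 34 and 56.

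By Pearson's r of log2(RPM + 1) over the 9 libraries, among 278 other miRNAs tested, the 5 most like miR-96-5p were miR-205 (0.991), miR-31a-5p (0.991), miR-429 (0.991), miR-200a-3p (0.990) and miR-200c-3p (0.989), all of them on the epithelial list. The 5 most like miR-182 were miR-200a-5p (0.979), miR-211-5p (0.978), miR-184 (0.976), miR-151-3p (0.968) and miR-320-3p (0.966). For miR-183-5p they were miR-125b-2-3p (0.985), miR-151-3p (0.984), miR-211-5p (0.984), miR-488-3p (0.964) and miR-200a-5p (0.964). Between the members r was 0.991 for miR-183-5p with miR-182, but 0.867 for miR-96-5p with miR-182 and 0.846 for miR-96-5p with miR-183-5p. Without isograft 12 these were 0.992, 0.974 and 0.968 over 8 libraries. These are descriptions: the libraries fall into 3 groups that differ in most of these miRNAs, and all values of a library share its denominator.

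Markers of other sources were read beside the cluster. The neuron and neural retina list had 11 miRNAs in the table, of which 4 were abundant enough to test. Its summed level was 273 to 410 RPM in normal corneas, 247 to 524 RPM in the isografts and 310 to 458 RPM in the allografts. miR-128-3p, miR-218a-5p and miR-9a-5p made up most of it, at 129, 97.5 and 36.9 RPM in normal 12. In allografts against normal corneas 1 of the 4 was called lower, miR-138-5p, and 0 were called higher (median log2 fold change -0.19). That share is near the 24.2% of all miRNAs called lower. miR-138-5p was also lower in isografts against normal corneas, at -1.76 (limma, adjusted p = 0.00034), where 4.63% of the miRNAs tested were called lower. miR-124-3p, the defining miRNA of neurons and neural retina, was between 0.0823 and 0.454 RPM in all libraries, at most 5 reads, and its other arm miR-124-5p was at 0 in the normal corneas and isografts. Cell bodies of sensory neurons lie outside the cornea, so this list bears on neural tissue and not on nerve endings alone.

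The leukocyte list had 8 miRNAs, among them miR-142-3p, miR-223-3p and miR-150-5p, none at 0 in any group. Its summed level ran from 295 to 308 RPM in normal corneas, 853 to 1823 RPM among the isografts and 4985 to 9064 RPM among the allografts. In isografts against normal corneas 7 of the 8 were called higher, where 47 of the 281 miRNAs tested were. All 8 were called higher in allografts against normal corneas, where 23.1% of the miRNAs tested were, and against isografts, where 13.5% were. The stroma list of 8 miRNAs summed to 9767 to 12023 RPM in normal corneas, 18846 to 38858 RPM among isografts and 12224 to 23197 RPM among allografts. The 2 arms of miR-126a, listed under endothelium, were both called higher in isografts and in allografts, each against normal corneas. Neither was called between allografts and isografts. miR-204-5p, miR-204-3p and miR-211-5p, listed here under pigment epithelium and lens, fell, all 3, in allografts against normal corneas and against isografts. Of the miRNAs tested, 24.2% and 21.0% were called lower there. In the libraries labelled normal cornea miR-204-5p was at 4836, 6499 and 6687 RPM. Whether these 3 miRNAs came from lens or pigment tissue or from the cornea itself was not tested. The part of any of these possible sources in the fall of the cluster was not tested.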

How the data were processed

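The 9 small RNA libraries of rat cornea and grafts were made, per the labels' protocols, with Illumina's TruSeq kit for small RNA from 1 ug of total RNA extracted with Trizol. The tools were bcl2fastq and BWA and the build rn6, per the submitters' processing notes; for versions, trimming, miRNA annotation and reads with several matches, the answer is not given in the sources used here. The authors deposited RPM values, and 100% of them came out as whole reads within 0.1 read. The cluster members and lists were chosen with earlier results of these data known. A filter of 5 RPM or more in 3 or more libraries left 281 of 765 miRNAs, all 3 members included. limma 3.58.1 (R 4.3.3, with trend) was fitted to log2(RPM + 1) of all 9 libraries, which understates changes of low miRNAs; p-values were Benjamini-Hochberg adjusted, threshold 0.05. edgeR 4.0.16 and DESeq2 1.42.0 on recovered reads were alternatives, with pseudocounts, filters, scalings, variance settings, single-comparison fits, a block and libraries left out. In simulated data the fits recovered 44.2% to 49.6% of 2-fold and 93.9% to 95.6% of 4-fold changes, depending on the comparison. Of the calls made there, 3.8% to 5.8% were false. The simulation changed 60 of 281 miRNAs and drew independent noise with the same spread in all 3 groups. The real groups differ in spread, so these rates need not hold for them. Named were the members, their other arms, fixed lists and, for each member, the 5 most correlated miRNAs. Members matched the RefSeq sequence table (GRCr8) by name, 3 of 3. Permutation tests were exact; 3 libraries against 3 cannot give p below 0.1.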

Additional observations from a re-analysis of the deposited data

How the results depend on the processing

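The calls of miR-182, miR-183-5p and miR-96-5p in allografts against normal corneas, and of miR-182 and miR-183-5p in allografts against isografts, kept their direction and stayed past the threshold in all 24 alternatives. miR-96-5p in isografts against normal corneas gained a call with median-of-ratios scaling (-0.81), edgeR (-0.80) and DESeq2 (-0.79), and ran from -0.93 to -0.35 with 1 library left out. In allografts against isografts it gained one with median-of-ratios scaling (-0.62), edgeR (-0.61), DESeq2 (-0.63) and without isograft 12 and allograft 34 (-0.98), and ran from -1.22 to -0.61 with 1 library left out. miR-183-5p in isografts against normal corneas turned to 0.22 when scaled to the listed miRNAs and ran from -0.18 to 0.0072 with 1 library left out. Of all miRNAs, 60 passed in isografts and 133 in allografts, each against normal corneas, and 97 between the graft types; the 50 RPM filter, which tests fewer miRNAs, gave 30, 63 and 44. Median-of-ratios scaling gave 115 in the first and 168 in the third, edgeR 114 and 163, DESeq2 119 and 171, and scaling to the listed miRNAs 122 in the first; the third ran from 52 to 147 with 1 library left out. The cause was not tested.

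In the 3-group tests, whose alternatives were chosen after seeing the data, miR-183-5p at -1.23 (allografts minus normal corneas) missed the threshold without isograft 12 and allograft 34 (exact permutation p = 0.0667), and miR-96-5p ran from -1.92 to -1.34 with 1 library left out. The ratio of miR-96-5p to miR-183-5p ran from -0.22 to 0.084 and miR-182 relative to the epithelial list from -0.18 to 0.11, both without a call. Whether the numbers in the titles pair the libraries is not known. Deviations from the group mean correlated from -0.51 to 0.56 between same-numbered libraries and from -0.72 to 0.60 between others. With 3 libraries a group, such correlations cannot decide it. With the number as a replicate block 66, 143 and 112 miRNAs passed, and no call of a member changed. The members had at least 439 reads in each library. miR-183-3p and miR-96-3p, with at most 18 reads, were below the filter and were not tested.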
